A study of Mus musculus with 24 samples.

Results

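Hand2 and 9 genes of fibroblast growth factor (FGF) signalling were followed in bulk RNA of immature mouse uteri with or without Ctcf. The genes were taken by symbol: the transcription factor gene Hand2, the ligand genes Fgf1, Fgf2, Fgf7, Fgf9, Fgf10 and Fgf18, and the receptor genes Fgfr1, Fgfr2 and Fgfr3. All 10 were found among the 22943 genes of the deposited table, and all 10 were among the 14284 genes tested. Levels are batch-corrected RPKM (reads scaled to gene length and library size).

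Whole uteri of 21-day-old female C57bl/6 mice were sampled 6 h after a subcutaneous injection. Progesterone (P4, 0.5 mg) was given for 4 knockout (cKO) and 4 floxed libraries, in 0.05 ml of sesame oil. Sesame oil alone, the vehicle, was given for 8 cKO and 8 floxed libraries. The cKO mice carried a floxed Ctcf gene on both alleles (Ctcf-f/f) and PgrCre, a Cre recombinase driven by the progesterone receptor gene Pgr, which acts in the cells of the uterus that express Pgr. Floxed mice were Ctcf-f/f littermates without Cre, so the loss of Ctcf and the presence of the Cre allele cannot be told apart. CTCF is a DNA-binding protein that anchors chromatin loops. The labels name 2 library batches: a mixed batch holds all 8 P4 libraries with 4 cKO and 4 floxed vehicle libraries, and a vehicle-only batch holds the other 4 cKO and 4 floxed vehicle libraries. Whether every library is a separate animal is not in the labels, so p-values rest on the spread between libraries, which may be technical in part.

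HAND2 is a basic helix-loop-helix protein of the uterine stroma. In the adult mouse uterus, progesterone acting through its receptor raises Hand2, in part through Indian hedgehog from the epithelium, and HAND2 holds down stromal FGF ligands that otherwise signal to FGF receptors on the epithelium and drive its proliferation through ERK. FGF7 and FGF10 are classical ligands made by mesenchyme that act on the epithelial form of FGFR2, while FGF1 and FGF2 bind several receptors. All FGF signalling of this kind needs heparan sulphate chains as a coreceptor.

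HAND2 and other basic helix-loop-helix proteins bind E-boxes, written CANNTG, and CAGATG (read on the other strand as CATCTG) is a form that HAND2 is known to bind. The promoter windows of 3 genes are shown with their E-boxes: that of Hand2 itself, and those of the mesenchymal ligand genes Fgf7 and Fgf10. This pair is shown because both were called lower in cKO uteri after P4, though the Fgf10 call was lost under 7 of 35 alternatives. Whether HAND2 binds or controls these genes here was not tested. Each runs from 250 bases before to 50 bases after the start that RefSeq gives in GRCm38.p6, and E-boxes are in capitals. Hand2 lies at chr8:57320733-57321032 on the plus strand, Fgf7 at chr2:126034408-126034707 on the plus strand, and Fgf10 at chr13:118714449-118714748 on the plus strand.
Hand2: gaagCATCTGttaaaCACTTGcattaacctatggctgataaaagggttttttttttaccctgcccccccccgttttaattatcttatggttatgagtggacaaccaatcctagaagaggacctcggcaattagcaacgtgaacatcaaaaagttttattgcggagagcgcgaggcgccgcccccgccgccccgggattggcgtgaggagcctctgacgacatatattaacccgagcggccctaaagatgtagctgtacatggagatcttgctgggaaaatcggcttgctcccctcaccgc
Fgf7: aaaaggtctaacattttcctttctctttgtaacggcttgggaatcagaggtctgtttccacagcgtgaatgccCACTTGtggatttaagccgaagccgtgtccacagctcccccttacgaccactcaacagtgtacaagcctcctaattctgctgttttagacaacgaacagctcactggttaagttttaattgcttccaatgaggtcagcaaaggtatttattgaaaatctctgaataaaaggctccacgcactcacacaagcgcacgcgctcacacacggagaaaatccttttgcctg
Fgf10: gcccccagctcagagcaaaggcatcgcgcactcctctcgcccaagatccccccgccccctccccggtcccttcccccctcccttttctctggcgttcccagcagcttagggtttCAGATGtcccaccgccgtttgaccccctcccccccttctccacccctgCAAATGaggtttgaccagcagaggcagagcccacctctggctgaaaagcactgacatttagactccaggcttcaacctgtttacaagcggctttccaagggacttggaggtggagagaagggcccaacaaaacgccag

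A window was used for 8 of the 10 genes, and Fgf1 and Fgfr1 are named only. On either strand the 300 bases held 2 E-boxes at Hand2, 1 at Fgf7, 1 at Fgf9, 2 at Fgf10 and 3 at Fgfr2, and none at Fgf2 or Fgf18. Fgfr3 has a pair of windows, with 1 match and 0 matches. CAGATG, every match of which is also an E-box, was present once in each of Hand2, Fgf10 and Fgfr2. The background is wide: of 32851 promoter windows, 72.3% held an E-box and 17.2% held CAGATG. These are letter matches in short windows, and the study's files hold no binding data to set beside them.

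**Figure D1:**
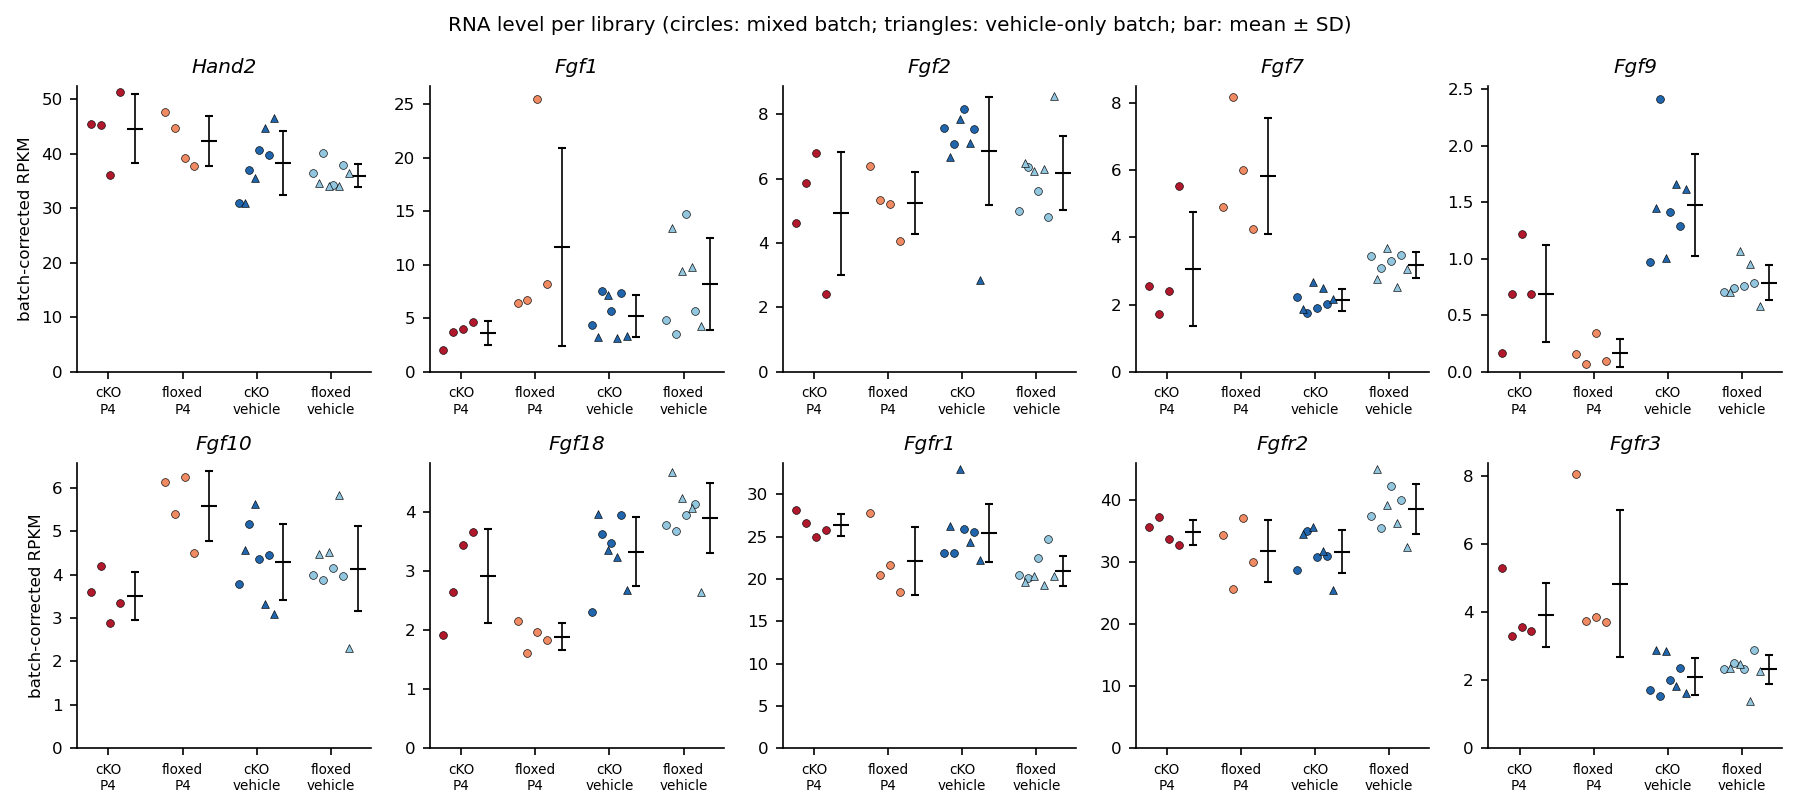
Level of each of the 10 genes in every library, in batch-corrected RPKM on linear axes from 0; columns are cKO P4, floxed P4, cKO vehicle and floxed vehicle, circles the mixed batch, triangles the vehicle-only batch, and bars the mean ± SD. Hand2 lies between 31 and 51.4 in all 24 libraries with overlapping groups, while Fgf7, Fgf9 and Fgf18 separate some groups and Fgf1 and Fgfr3 each have 1 floxed P4 library far above the others.

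RPKM is scaled to gene length, so levels can be set beside each other, but only roughly after the batch correction. That correction shifted each gene by constants of its own, which weigh most in low genes such as Fgf9. Over all libraries Hand2 had the highest mean of the genes, 39.2 ± 5.5 RPKM (SD, n = 24), followed by Fgfr2 at 34.5 ± 4.69 RPKM and Fgfr1 at 23.5 ± 3.51 RPKM. In floxed vehicle libraries the first 2 stood the other way, at 38.5 RPKM for Fgfr2 and 36 RPKM for Hand2. Ligands were lower: Fgf1 averaged 7.03 ± 5.04, Fgf2 6.04 ± 1.56, Fgf10 4.32 ± 1.02, Fgf7 3.25 ± 1.56 and Fgf18 3.2 ± 0.886 RPKM. Fgfr3 averaged 2.93 ± 1.42 RPKM and Fgf9 0.898 ± 0.563 RPKM. In that order Hand2 and Fgfr2 overlap in range, as do Fgf1 and Fgf2, and Fgf10, Fgf7, Fgf18 and Fgfr3 lie within each other's spread. Fgfr2 and Fgfr1 also overlap in range, whereas the lowest Fgfr1 value, 18.5 RPKM, was above all but 1 ligand value, the Fgf1 level of 25.5 RPKM in floxed P4 library 7.

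Depth, estimated from the steps between low values, ran between 29900000 and 100600000 reads per library, with medians of 72700000 (mixed batch) and 49850000 (vehicle-only batch). Ctcf itself averaged 9.95 ± 0.982 RPKM in cKO P4 (n = 4) against 26 ± 1.05 in floxed P4 (n = 4) libraries, and 11.5 ± 1.11 in cKO vehicle (n = 8) against 25.9 ± 2.36 in floxed vehicle (n = 8) libraries, with no overlap between genotypes. Stromal markers were abundant in every library, with a summed level of 1268 to 3232 RPKM over 12 genes, and so were those of smooth muscle and epithelium. Some libraries also held markers of neighbouring tissue. Ovgp1, a secreted protein of the oviduct, reached 380 RPKM in floxed P4 library 7, 191 in cKO vehicle library 12 and 146 in floxed vehicle library 3, against at most 0.156 in the other libraries of the mixed batch. Krt5, a keratin of squamous and basal epithelium, reached 50.5 RPKM in cKO vehicle library 9 and 14.8 in cKO P4 library 8, against at most 7.98 in the other libraries of the mixed batch. In the vehicle-only batch Ovgp1 ran between 16.8 and 60.2 RPKM and Krt5 between 4.69 and 10.1 RPKM. The batch correction gave the vehicle libraries of both batches the same mean for each gene, so these values compare libraries only within a batch. Results that change without the 5 libraries named here for Ovgp1 or Krt5 are given with that value. Adipose markers, 6 genes, also varied widely. Their summed level ran between 95.8 and 504 RPKM in cKO P4 and between 180 and 803 in floxed P4 libraries. After vehicle it ran between 35.1 and 1154 RPKM in cKO and between 2.33 and 1098 in floxed libraries. No alternative was chosen by these markers, and their part in the results was not tested.

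Hand2 (chr8:57320983-57324633, plus strand, protein coding) did not pass the test in any comparison, though its P4 response in cKO uteri did when libraries were weighted. It measured 45.4, 45.3, 36.1 and 51.4 RPKM in cKO P4 libraries, against 47.7, 44.7, 39.3 and 37.8 RPKM in floxed P4 libraries. After vehicle the lowest, median and highest values were 31, 38.4 and 46.6 RPKM in cKO and 34, 35.5 and 40.1 RPKM in floxed libraries. After P4 the means were 44.6 ± 6.3 RPKM in cKO and 42.4 ± 4.61 RPKM in floxed libraries, and after vehicle 38.3 ± 5.78 RPKM in cKO and 36 ± 2.19 RPKM in floxed libraries, with overlap in both. The spread was wider in cKO than in floxed vehicle libraries, and that difference in spread was not tested.

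Hand2 in cKO over floxed uteri had a log2 fold change of 0.07 ± 0.12 (SE) after P4 and 0.08 ± 0.09 after vehicle (limma adjusted p = 0.748 and 0.578). An exact permutation test of the mean difference in RPKM gave 2.18 after P4 (two-sided exact p = 0.6, where 0.0286 is the smallest p possible) and 2.3 after vehicle (exact p = 0.322, smallest 0.000408). P4 over vehicle gave a log2 fold change of 0.22 ± 0.11 in cKO and 0.22 ± 0.11 in floxed uteri (adjusted p = 0.274 and 0.162). Within the mixed batch that was 7.45 RPKM in cKO (exact p = 0.114) and 5.22 RPKM in floxed uteri (exact p = 0.143), and over the 4 exact tests every Benjamini-Hochberg adjusted p was at least 0.286. The difference between those responses was -0.01 ± 0.15 on the log2 scale (adjusted p = 0.99). With weights per library the P4 response in cKO uteri was 0.20 ± 0.06 (adjusted p = 0.0152), a setting that also called 2184 higher and 3781 lower genes, against 572 and 666 without weights. Library by library, 3 of 4 cKO P4 values lay above the highest mixed-batch cKO vehicle value of 40.6 RPKM. Only that of library 8, 51.4 RPKM, lay above the highest cKO vehicle value of both batches, 46.6 RPKM. In floxed uteri 2 of 4 P4 values lay above the highest vehicle value, 40.1 RPKM in the mixed batch and over both batches.

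Hand2 shares its locus with an antisense gene, Hand2os1 (chr8:57281117-57324233, minus strand, a processed transcript), which was looked at after its values were seen. Of the 2351 exonic bases of Hand2, 461 (19.6%) are also exonic in Hand2os1, and the RefSeq starts of the pair are 124 bases apart. Whether the counting used strand is not known here, so reads of the pair cannot be told apart over the shared bases. Hand2os1 measured 36.8, 42.1, 26.3 and 44.6 RPKM in cKO P4 libraries, against 27.6, 25.5, 25.5 and 29.6 RPKM in floxed P4 libraries. After vehicle its mean in the mixed batch was 26.9 RPKM in cKO and 25.3 RPKM in floxed libraries. Of the 4 cKO P4 libraries, 3 stood above every floxed P4 library and 1 lay within them.

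Unlike Hand2, Hand2os1 was called higher in cKO than in floxed uteri after P4 (log2 fold change 0.44 ± 0.13, adjusted p = 0.0205) and higher after P4 than after vehicle in cKO uteri (0.48 ± 0.12, adjusted p = 0.0151). In floxed uteri the P4 response was 0.07 ± 0.12 (adjusted p = 0.723), and the difference between responses, 0.41 ± 0.16, had an adjusted p of 0.216. Leaving out cKO P4 library 5 or 8 put both calls above the threshold (adjusted p between 0.0645 and 0.0753), and leaving out floxed P4 library 2 or 7 did so for the genotype call after P4 (0.0566 and 0.0537). Without cKO P4 library 6 the difference between responses passed, at 0.56 (adjusted p = 0.0258), as it did with weights per library (0.52, 0.00258). Without the 5 libraries with oviduct or squamous markers the values of the first 2 were 0.32 (adjusted p = 0.163) and 0.30 (0.346), and within the mixed batch alone the response in cKO uteri was 0.46 (0.0548). Whether Hand2 and Hand2os1 differ from each other in response was not tested.

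Most of the genes listed for the route by which progesterone reaches Hand2 were lower in cKO than in floxed uteri after vehicle. Of these 9 genes, 0 were higher and 6 lower, against 13.1% and 11.5% of all tested genes, with a median log2 fold change of -0.77. After P4, 0 were higher and 1, Gli3, was lower, against 12.3% and 7.06%. Ihh, the epithelial ligand Indian hedgehog, averaged 2.49 ± 1.46 RPKM in cKO and 10.2 ± 4.59 RPKM in floxed vehicle libraries (log2 fold change -1.91 ± 0.28, adjusted p = 1.74e-05). After P4 it averaged 13.8 ± 2.32 RPKM in cKO and 18.5 ± 3.75 RPKM in floxed libraries (-0.40 ± 0.39, adjusted p = 0.527). Ptch1, the stromal receptor of hedgehog and one of its targets, averaged 10.9 ± 3.01 RPKM in cKO and 27.7 ± 5.49 RPKM in floxed vehicle libraries (-1.33 ± 0.15, adjusted p = 5.44e-07). Nr2f2, the stromal receptor COUP-TFII that stands between hedgehog and Hand2, averaged 44.4 ± 1.3 RPKM in cKO and 47 ± 1.37 RPKM in floxed vehicle libraries (-0.08 ± 0.04, adjusted p = 0.138).

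Pgr was lower in cKO than in floxed uteri after vehicle (-0.77 ± 0.14, adjusted p = 0.000235), and its locus carries Cre in the knockouts. Pgr fell with P4 in both genotypes, to 13.4 ± 3.6 RPKM in cKO P4 libraries, against 23.2 ± 3.84 in cKO vehicle, and to 11 ± 3.29 RPKM in floxed P4 libraries, against 39.5 ± 4.18 in floxed vehicle. Without the 5 libraries with oviduct or squamous markers the fall in cKO uteri did not pass (-0.63, adjusted p = 0.0855). Its difference in response was 1.04 ± 0.24 (adjusted p = 0.0197), that of Ptch1 1.15 ± 0.26 (0.0165), and that of Gli3, a transcription factor of the hedgehog pathway, -0.83 ± 0.18 (0.0104). The Pgr difference did not pass without cKO P4 library 4 (0.94, adjusted p = 0.0501) or 5 (0.99, 0.058) or floxed P4 library 9 (0.89, 0.0656), nor in the mixed batch alone (1.00, 0.087). That of Ptch1 did not pass without cKO P4 library 5 (1.03, 0.0586) or without the 5 libraries with other-tissue markers (1.21, 0.0516), and that of Gli3 without those 5 (-0.71, 0.075) or in the mixed batch alone (-0.81, 0.0519).

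**Figure D2:**
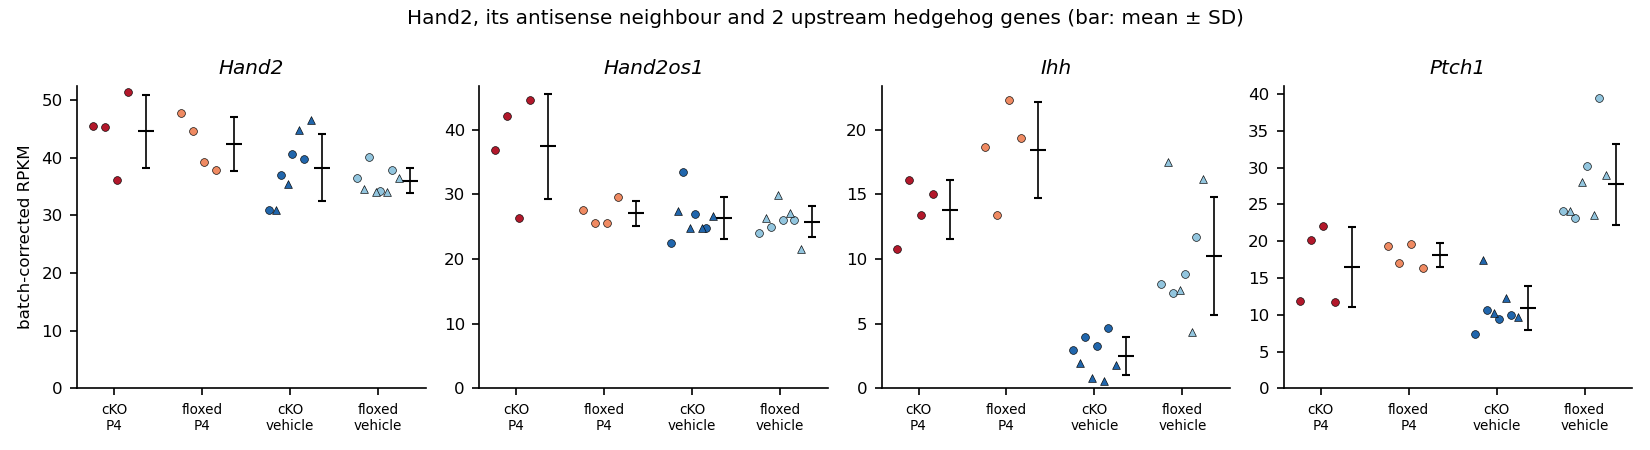
Level per library, in batch-corrected RPKM on linear axes from 0, of Hand2, its antisense neighbour Hand2os1, and the hedgehog genes Ihh and Ptch1 in cKO P4, floxed P4, cKO vehicle and floxed vehicle libraries; circles are the mixed batch, triangles the vehicle-only batch, bars the mean ± SD. Ihh and Ptch1 are lower in cKO than in floxed vehicle libraries (mean 2.49 against 10.2 and 10.9 against 27.7 RPKM), while Hand2 overlaps in every comparison and 3 of 4 cKO P4 values of Hand2os1 lie above all floxed P4 values.

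By profile over the 24 libraries, the genes nearest to Hand2 were Zcrb1, Tor1a, Fam216a, Sod2 and Ttc7b. Nearness was the root mean square difference of log2 values, each less the gene's own mean, and it was 0.11 for Zcrb1, 0.128 for Tor1a, Fam216a and Sod2, and 0.13 for Ttc7b, against a median of 0.274 over the 9674 genes compared. Hand2 itself varied with an SD of 0.196, so these are genes that also varied little. Of these 5, Ttc7b was called higher in cKO than in floxed uteri after vehicle (0.18) and higher after P4 in floxed uteri (0.28), and Sod2 was called higher after P4 in floxed uteri (0.33).

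The basic helix-loop-helix relatives and partners of Hand2 gave 6 tested genes of 7. After vehicle 0 were higher and 2 lower in cKO uteri, against 13.1% and 11.5% of all tested genes: Tcf21, a factor of mesenchyme, at 31.9 ± 3.23 RPKM in cKO and 44.1 ± 4.14 RPKM in floxed libraries (log2 fold change -0.46 ± 0.09, adjusted p = 0.000414), and Twist2 at 16.5 ± 2.55 and 23.3 ± 5.72 RPKM in cKO and floxed libraries (-0.47 ± 0.13, adjusted p = 0.00853). None passed between genotypes after P4 or in the difference in response, by limma. Neither vehicle call passed in the vehicle-only batch alone (Tcf21 -0.26, adjusted p = 0.164, and Twist2 -0.64, 0.115), and Twist2 did not pass in the mixed batch alone (-0.29, 0.154).

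Of the 6 ligand genes, Fgf7 had the smallest adjusted p between genotypes after P4. Over all 10 genes, 2 were higher and 3 lower in cKO than in floxed uteri after P4, against 12.3% and 7.06% of the 14284 tested genes (1758 and 1009 genes, or 1470 and 1319 after quantile normalization). After vehicle 2 were higher and 2 lower, against 13.1% and 11.5% of tested genes. Fgf9, among the higher genes in both, met the filter only through the cKO vehicle group, where 7 of 8 libraries reached 1 RPKM. Median log2 fold changes of the 10 were -0.04 after P4 and -0.03 after vehicle, beside 0.03 and -0.01 over all tested genes. With so few members, these counts describe single genes and not a shift of the group. In whole-uterus RNA, fewer cells of a type and less RNA per cell cannot be told apart.

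Fgf7 (chr2:126034658-126091185, plus strand), the keratinocyte growth factor made by mesenchyme, measured 2.56, 1.73, 2.41 and 5.53 RPKM in cKO P4 libraries, against 4.91, 8.16, 6 and 4.24 RPKM in floxed P4 libraries. After vehicle the lowest, median and highest values were 1.76, 2.1 and 2.68 RPKM in cKO and 2.51, 3.2 and 3.67 RPKM in floxed libraries. Of the cKO P4 libraries 3 lay below every floxed one, and library 8, which also carried Krt5, lay among them. The vehicle groups overlapped only in the vehicle-only batch and were apart in the mixed batch.

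Fgf7 was lower in cKO than in floxed uteri after P4 (log2 fold change -0.90 ± 0.22, adjusted p = 0.00474) and after vehicle (-0.47 ± 0.15, adjusted p = 0.0251). The call after P4 passed under all 34 alternatives in which Fgf7 could be tested, with values between -1.36 and -0.71, and without cKO P4 library 8 it was -1.19 (adjusted p = 4.73e-05). The call after vehicle passed in neither batch alone, with -0.63 in the mixed (adjusted p = 0.0796) and -0.32 in the vehicle-only batch (0.285). On untransformed RPKM the vehicle difference of -1.02 RPKM also did not pass (0.125).

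Fgf7 also rose with P4 in floxed uteri, by 0.77 ± 0.20 (adjusted p = 0.00811), and the mixed-batch groups of 4 did not overlap: 5.83 ± 1.72 RPKM in floxed P4 against 3.33 ± 0.169 RPKM in floxed vehicle libraries. In cKO uteri the P4 response was 0.34 ± 0.20 (adjusted p = 0.339), with 3.06 ± 1.69 RPKM in P4 against 1.98 ± 0.19 RPKM in mixed-batch vehicle libraries. The difference between these responses was -0.42 ± 0.26 (adjusted p = 0.514), so a weaker response in cKO uteri is not shown. With weights per library that difference was -0.78 (0.0034).

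Fgf10 (chr13:118669791-118792115, plus strand), the other mesenchymal ligand of epithelial FGFR2, measured 3.6, 4.19, 2.89 and 3.34 RPKM in cKO P4 libraries, against 6.14, 5.4, 6.24 and 4.5 RPKM in floxed P4 libraries. No cKO value reached the floxed range. The log2 fold change was -0.60 ± 0.19 (adjusted p = 0.0287) over all libraries and -0.60 ± 0.12 (0.00177) in the mixed batch alone. The call was lost, with values between -0.61 and -0.52 and adjusted p between 0.0534 and 0.0816, on leaving out cKO P4 library 6 or 8 or floxed P4 library 1, 2 or 7, and without the 5 libraries with oviduct or squamous markers (-0.53, 0.162).

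After vehicle Fgf10 did not separate the genotypes: the lowest, median and highest values were 3.09, 4.39 and 5.62 RPKM in cKO and 2.31, 4.08 and 5.82 RPKM in floxed libraries (log2 fold change 0.06 ± 0.13, adjusted p = 0.816). P4 over vehicle gave -0.27 ± 0.18 in cKO (adjusted p = 0.403) and 0.39 ± 0.18 in floxed uteri (0.12), and the difference between these responses was -0.66 ± 0.23 (0.156). In the mixed batch alone, where the 4 floxed vehicle libraries lay between 3.87 and 4.16 RPKM, the floxed response of 0.42 (adjusted p = 0.0151) and the difference in response of -0.73 (0.0276) did pass. Both also passed with weights per library (0.38, 0.0126, and -0.46, 0.0229), and the floxed response after quantile normalization (0.49, 0.0241).

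**Figure D3:**
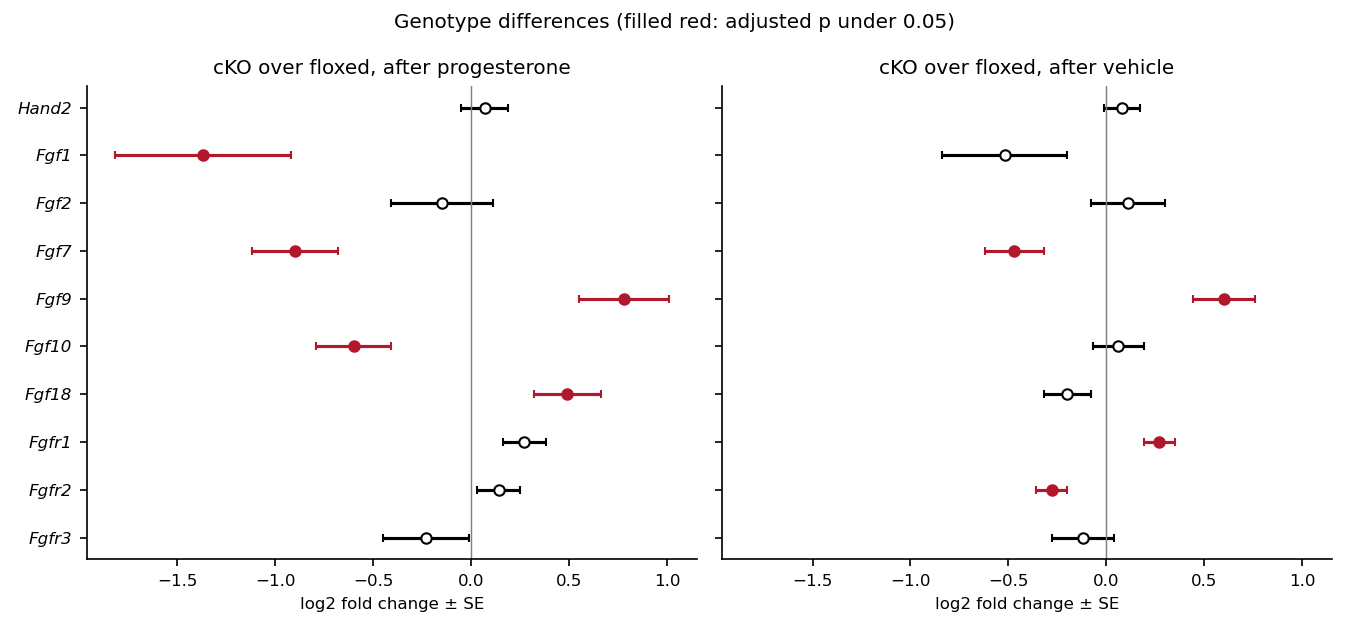
Log2 fold change of cKO over floxed for each of the 10 genes, with its standard error as a horizontal bar, after P4 (left) and after vehicle (right); filled red points have an adjusted p under 0.05. Fgf7 is lower in both panels (-0.90 and -0.47), Fgf9 higher in both (0.78 and 0.60), Fgf1 and Fgf10 lower in the left panel, and Hand2 sits near 0 in both.

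Fgf1 (chr18:38838673-38929472, minus strand), the acidic FGF that binds all the FGF receptors, was called lower in cKO than in floxed uteri after P4, but 1 library weighs on that value. It measured 2.01, 3.76, 4.01 and 4.68 RPKM in cKO P4 libraries, against 6.42, 6.66, 25.5 and 8.18 RPKM in floxed P4 libraries. The groups did not overlap, and floxed library 7 stood far above the other 3. The log2 fold change was -1.37 ± 0.45 (adjusted p = 0.0349), without floxed P4 library 7 it was -0.92 (0.146), and without the 5 libraries with oviduct or squamous markers it was -1.05 (0.115). On untransformed RPKM the difference of -8.08 RPKM did not pass (0.0771). Leaving out cKO P4 library 4, 5 or 6 or floxed P4 library 9 also put the adjusted p above the threshold, at 0.109, 0.0603, 0.0501 and 0.0502, with values of -1.15, -1.40, -1.43 and -1.45.

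The same library 7 held the 380 RPKM of Ovgp1. Floxed vehicle library 3, with 146 RPKM of Ovgp1, had 14.7 RPKM of Fgf1, the highest of the floxed vehicle group, and cKO vehicle library 12, with 191 RPKM of Ovgp1, had 7.4 RPKM. In cKO P4 libraries, where Fgf1 was lowest, 3 of the 6 oviduct markers (Ovgp1, Dnah5 and Ccdc153) were at or below 0 in all 4 libraries. Floxed P4 libraries 1, 2 and 9 were also low in Ovgp1, at -10.7, 0.156 and -9.24 RPKM. So were cKO vehicle libraries 9, 10 and 11b and floxed vehicle libraries 1b, 2 and 4, between -13.3 and -9.63 RPKM. Values below 0 were thus not particular to cKO P4 libraries. The summed level of the 6 markers ran between 29.2 and 34.5 RPKM in cKO P4 libraries. In floxed P4 libraries 1, 2 and 9 it was no higher, at 23.6, 20.4 and 25.1 RPKM, and only library 7 stood above, at 454 RPKM. Their part in the Fgf1 result was not tested beyond the values without these libraries.

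After vehicle Fgf1 had a lowest, median and highest value of 3.15, 5.03 and 7.55 RPKM in cKO and 3.5, 7.54 and 14.7 RPKM in floxed libraries, and the log2 fold change was -0.52 ± 0.32 (adjusted p = 0.256). The batches differed in this: -0.02 in the mixed and -1.02 in the vehicle-only batch, neither past the threshold (0.982 and 0.125). P4 over vehicle gave -0.48 ± 0.42 in cKO (adjusted p = 0.543) and 0.37 ± 0.42 in floxed uteri (0.577). Without floxed P4 library 7 the floxed response was -0.08, and with weights per library it was 0.96 (0.0408).

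**Figure D4:**
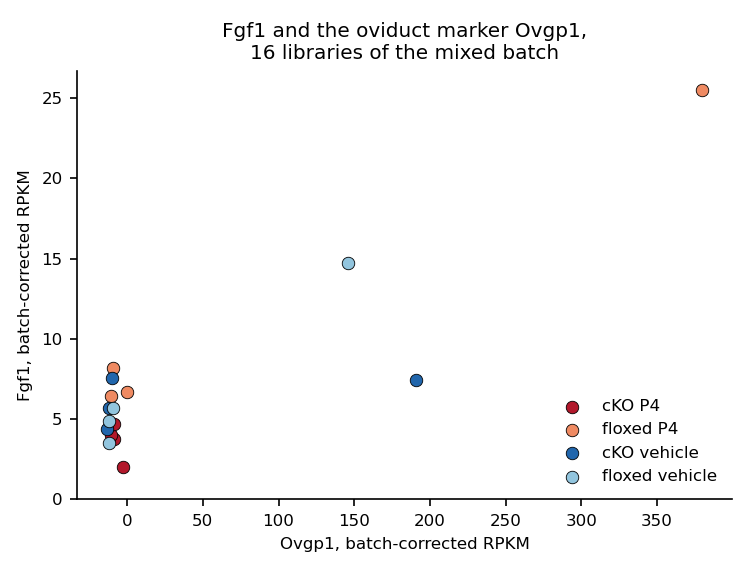
Fgf1 against the oviduct marker Ovgp1 in the 16 libraries of the mixed batch, both in batch-corrected RPKM on linear axes; colours are cKO P4, floxed P4, cKO vehicle and floxed vehicle. Floxed P4 library 7 has the highest value of both genes (25.5 and 380 RPKM). The 4 cKO P4 libraries lie at the low end of both. Floxed P4 libraries 1, 2 and 9, and the vehicle libraries other than cKO 12 and floxed 3, are about as low in Ovgp1.

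Fgf2 (chr3:37348346-37410108, plus strand), the basic FGF, passed in no comparison by the unweighted fit. It measured 4.62, 5.85, 6.81 and 2.41 RPKM in cKO P4 and 6.4, 5.35, 5.22 and 4.05 RPKM in floxed P4 libraries, and after vehicle its lowest, median and highest values were 2.86, 7.32 and 8.17 RPKM in cKO and 4.82, 6.28 and 8.57 RPKM in floxed libraries. All groups overlapped. The log2 fold changes of cKO over floxed were -0.15 ± 0.26 after P4 and 0.11 ± 0.19 after vehicle (adjusted p = 0.735 and 0.732). In vehicle libraries the direction turned with the batch, at 0.45 ± 0.21 in the mixed batch, where the groups of 4 did not overlap, and -0.23 ± 0.27 in the vehicle-only batch (adjusted p = 0.169 and 0.742). P4 over vehicle was -0.49 ± 0.25 in cKO and -0.23 ± 0.25 in floxed uteri (adjusted p = 0.251 and 0.556). In the mixed batch the cKO groups did not overlap, at 4.92 RPKM in P4 against 7.58 RPKM in vehicle libraries (-0.66, 0.0703). With weights per library Fgf2 passed for genotype after vehicle (0.41, adjusted p = 0.00373) and for the P4 response in cKO uteri (-0.34, 0.0234).

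Fgf9 and Fgf18 were called higher in cKO than in floxed uteri after P4, each from a low level. The Fgf18 call was lost under 22 of 34 alternatives. With Fgf1 and Fgf2 they are the ligands that HAND2 is known to hold down in adult mouse stroma. Of those other ligands, Fgf1 was called lower after P4 (-1.37), a call lost under 8 of 35 alternatives. Fgf2 did not pass (-0.15), with values between -0.32 and 0.21 under the alternatives, so it showed no direction. Fgf9 (chr14:58070547-58112720, plus strand) measured 0.165, 0.691, 1.22 and 0.686 RPKM in cKO P4 libraries, against 0.156, 0.0692, 0.343 and 0.0953 RPKM in floxed P4 libraries. After vehicle its lowest, median and highest values were 0.971, 1.43 and 2.41 RPKM in cKO and 0.58, 0.75 and 1.07 RPKM in floxed libraries. Of the cKO P4 values 3 lay above all floxed P4 values, and the vehicle groups overlapped only between the lowest cKO and the highest floxed values.

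Fgf9 reached 1 RPKM in 9 of the 24 libraries, 1 of them cKO P4, 0 floxed P4, 7 cKO vehicle and 1 floxed vehicle, so it entered the test through the group where it was highest. For cKO over floxed the log2 fold change was 0.78 ± 0.23 after P4 (adjusted p = 0.0182) and 0.60 ± 0.16 after vehicle (0.00801). After P4 the call was lost without cKO P4 library 6 (0.57, 0.0782) or floxed P4 library 2 (0.71, 0.0582) or 9 (0.73, 0.0519), after quantile normalization (0.54, 0.10) and on untransformed RPKM (a difference of 0.53 RPKM, 0.137). After vehicle the log2 fold change was 0.65 in the mixed and 0.54 in the vehicle-only batch, neither past the threshold by itself (0.0866 and 0.109).

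P4 lowered Fgf9 in both genotypes. Over vehicle the log2 fold change was -0.77 ± 0.21 in cKO (adjusted p = 0.0254) and -0.95 ± 0.21 in floxed uteri (0.00242). The difference between these responses did not pass (0.18 ± 0.28, 0.849). On untransformed RPKM the floxed response, -0.62 RPKM, was just above the threshold (0.05). In the mixed batch the floxed groups of 4 were apart, at 0.166 ± 0.124 RPKM in P4 against 0.747 ± 0.0342 RPKM in vehicle libraries. In cKO uteri they overlapped, at 0.691 ± 0.432 RPKM in P4 against 1.52 ± 0.62 RPKM in vehicle libraries, and the call was lost without cKO P4 library 4 (-0.51, 0.108) or cKO vehicle library 10 (-0.63, 0.0582), in the mixed batch alone (-0.79, 0.0596) and without the 5 libraries with oviduct or squamous markers (-0.94, 0.0696).

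Fgf18 (chr11:33117430-33147400, minus strand) had the smallest adjusted p of the 10 genes in any comparison, for its fall with P4 in floxed uteri. It measured 2.15, 1.61, 1.96 and 1.83 RPKM in floxed P4 libraries, against a lowest, median and highest value of 2.65, 4 and 4.68 RPKM in floxed vehicle libraries. No floxed P4 value reached the vehicle range. The log2 fold change was -0.88 ± 0.16 (adjusted p = 0.000365), and it passed under all 34 alternatives in which Fgf18 could be tested, with values between -1.0 and -0.72.

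In cKO uteri Fgf18 measured 1.91, 2.64, 3.43 and 3.65 RPKM after P4, against a lowest, median and highest value of 2.3, 3.42 and 3.97 RPKM after vehicle. These overlapped, and the log2 fold change was -0.19 ± 0.16 (adjusted p = 0.54). The difference between the responses was 0.69 ± 0.21 (unadjusted p = 0.00314, adjusted p = 0.0849). It passed without cKO P4 library 4 (0.85, adjusted p = 0.0226) or floxed vehicle library 12 (0.76, 0.024), and without the 5 libraries with oviduct or squamous markers it was 0.56 (0.345). With weights per library the difference (0.53, 0.00463) and the response in cKO uteri (-0.34, 0.00247) both passed.

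Fgf18 was also called higher in cKO than in floxed uteri after P4, at 0.49 ± 0.17 with an adjusted p of 0.0475, and 2.91 ± 0.794 RPKM in cKO against 1.89 ± 0.229 RPKM in floxed libraries. That call is at the edge: leaving out any of 16 of the 24 libraries put the adjusted p above the threshold, between 0.0524 and 0.14, as did a pseudocount of 1 (0.0522) and the absence of a filter (0.061). It was also lost without the 5 libraries with oviduct or squamous markers (0.40, adjusted p = 0.168), after quantile normalization (0.35, 0.133) and on untransformed RPKM (a difference of 1.02 RPKM, 0.0923). Leaving out cKO P4 library 5, 6 or 8, floxed P4 library 2, 7 or 9, cKO vehicle library 5, 10, 11a or 11b, or floxed vehicle library 1b, 2, 3, 4, 7 or 10 had this effect. After vehicle the value was -0.20 ± 0.12 (adjusted p = 0.241), with 3.32 ± 0.586 RPKM in cKO and 3.89 ± 0.589 RPKM in floxed libraries.

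In the P4 responses, 1 gene was called higher and 1 lower in cKO uteri, against 4.00% and 4.66% of tested genes, and 2 were called higher and 2 lower in floxed uteri, against 7.84% and 15.1% (1120 and 2160 genes, or 1395 and 1608 after quantile normalization). Fgf9, among the lower genes in both, met the filter only through the cKO vehicle group. The median log2 fold change of the 10 was -0.07 in cKO and 0.14 in floxed uteri, beside -0.02 and -0.06 over all tested genes. For the difference between responses, limma called 0 of 10 in either direction, against 1.46% higher and 1.03% lower of all tested genes. At an unadjusted p under 0.05 the count was 2 higher (Fgf18 and Fgfr2) and 1 lower (Fgf10), against 9.71% and 4.47% of all tested genes. With weights per library 5 of the 10 were called (Fgf1, Fgf7, Fgf10, Fgf18 and Fgfr2), beside 2381 higher and 1741 lower of all genes.

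**Figure D5:**
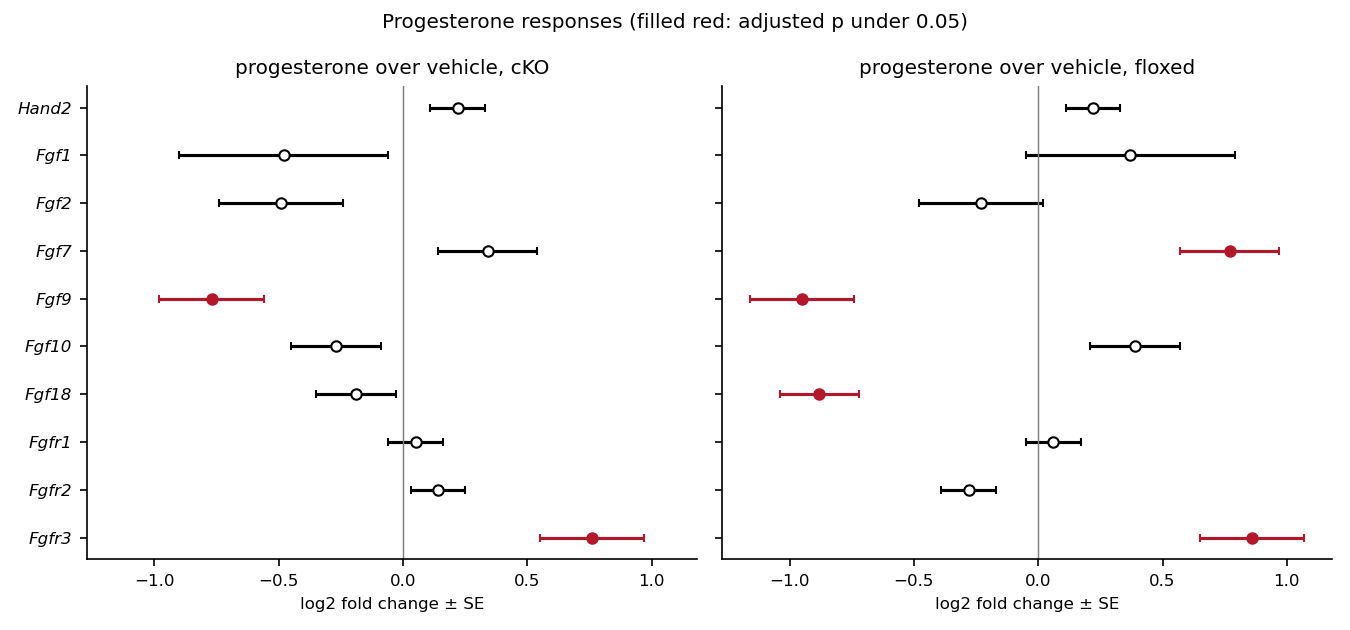
Log2 fold change of P4 over vehicle for each of the 10 genes, with its standard error as a horizontal bar, in cKO (left) and floxed uteri (right); filled red points have an adjusted p under 0.05. Fgf9 is lower and Fgfr3 higher in both panels, Fgf7 higher and Fgf18 lower in the floxed panel (0.77 and -0.88), and Hand2 sits at 0.22 in both.

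Of the receptors, Fgfr1 and Fgfr2 were abundant, and after vehicle Fgfr1 was higher and Fgfr2 lower in cKO than in floxed uteri, by small amounts. Fgfr1 (chr8:25513654-25575718, plus strand), the receptor typical of mesenchyme, measured 28.1, 26.6, 25 and 25.8 RPKM in cKO P4 and 27.8, 20.5, 21.6 and 18.5 RPKM in floxed P4 libraries. After vehicle its lowest, median and highest values were 22.2, 25 and 33 RPKM in cKO and 19.3, 20.3 and 24.7 RPKM in floxed libraries. Most cKO values lay above most floxed ones, with overlap in both treatments.

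The log2 fold change of Fgfr1 in cKO over floxed was 0.27 ± 0.11 after P4 (adjusted p = 0.107), where it passed without floxed P4 library 1 (0.38, 0.0161) or with weights per library (0.36, 0.00119), and 0.27 ± 0.08 after vehicle (0.015). The vehicle call passed in neither batch alone: 0.15 in the mixed (0.353) and 0.39 in the vehicle-only batch (0.0857), where the groups did not overlap. P4 did not change Fgfr1 past the threshold, at 0.05 ± 0.11 in cKO and 0.06 ± 0.11 in floxed uteri (adjusted p = 0.831 and 0.75).

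Fgfr2 (chr7:130162451-133123350, minus strand), whose epithelial form binds FGF7 and FGF10, measured 35.6, 37.3, 33.7 and 32.7 RPKM in cKO P4 and 34.4, 25.7, 37.1 and 30.1 RPKM in floxed P4 libraries. After vehicle its lowest, median and highest values were 25.6, 31.4 and 35.7 RPKM in cKO and 32.4, 38.3 and 45.1 RPKM in floxed libraries. The vehicle groups were apart in the mixed batch and overlapped in the vehicle-only batch. The gene-level table does not separate the epithelial and mesenchymal forms of the receptor.

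After vehicle Fgfr2 averaged 31.7 ± 3.45 RPKM in cKO against 38.5 ± 4.02 RPKM in floxed libraries, and the log2 fold change was -0.28 ± 0.08 (adjusted p = 0.0133). The call did not pass in the mixed batch alone (-0.30, 0.0537), in the vehicle-only batch alone (-0.26, 0.353) or without the 5 libraries with oviduct or squamous markers (-0.23, 0.0839). After P4 the value was 0.14 ± 0.11 (adjusted p = 0.435). P4 over vehicle was 0.14 ± 0.11 in cKO (0.489) and -0.28 ± 0.11 in floxed uteri (0.0608). The floxed response passed without floxed P4 library 7 (-0.36, 0.0295), cKO vehicle library 5 (-0.30, 0.0495) or floxed vehicle library 12 (-0.30, 0.0323), and in the mixed batch alone (-0.29, 0.0443). The difference between these responses was 0.42 ± 0.14 (unadjusted p = 0.00661, adjusted p = 0.128). With weights per library Fgfr2 passed for genotype after P4 (0.21, adjusted p = 0.0239), for the response in cKO (0.23, 0.0044) and floxed uteri (-0.24, 0.0149) and for the difference (0.47, 0.00111).

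Epithelial markers also differed between genotypes. After vehicle, 1 of 11 was higher and 6 were lower in cKO uteri, against 13.1% and 11.5% of all tested genes. Their summed level ran between 329 and 501 RPKM in cKO and between 430 and 651 RPKM in floxed vehicle libraries. After P4, 3 were higher and 0 lower, against 12.3% and 7.06%. The summed level was then between 419 and 634 RPKM in cKO and between 388 and 616 RPKM in floxed libraries. Their part in the Fgfr2 result was not tested.

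Fgfr3 (chr5:33721674-33737068, plus strand), a low receptor gene here, rose with P4 in both genotypes. It measured 5.3, 3.3, 3.56 and 3.46 RPKM in cKO P4 libraries, against a lowest, median and highest value of 1.55, 1.92 and 2.89 RPKM in cKO vehicle libraries. In floxed uteri it measured 8.06, 3.74, 3.86 and 3.7 RPKM in P4 libraries, against a lowest, median and highest value of 1.38, 2.35 and 2.89 RPKM in vehicle libraries. No P4 value of either genotype fell in its vehicle range, and 1 P4 library of each genotype stood far above the other 3.

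The log2 fold change of P4 over vehicle was 0.76 ± 0.21 in cKO (adjusted p = 0.0232) and 0.86 ± 0.21 in floxed uteri (0.0042), with a difference of -0.10 ± 0.27 (0.921). The floxed call passed under all 34 alternatives in which Fgfr3 could be tested, with values between 0.61 and 0.96. The call in cKO uteri did not pass without cKO P4 library 4 (0.62, 0.087) or cKO vehicle library 9 (0.71, 0.055) or 10 (0.68, adjusted p = 0.05, just above the threshold), without the 5 libraries with oviduct or squamous markers (0.79, 0.149) or on untransformed RPKM (a difference of 1.80 RPKM, 0.0859). Between genotypes the values were -0.23 ± 0.22 after P4 and -0.12 ± 0.16 after vehicle (adjusted p = 0.518 and 0.624).

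Markers of the cells that make and receive these signals give the tissue background of the genotype differences. Stromal markers, 12 genes, summed to between 1268 and 1941 RPKM in cKO P4 against 1515 to 2021 in floxed P4 libraries, and to between 1683 and 3232 in cKO vehicle against 1788 to 2225 in floxed vehicle libraries. The sums of cKO P4 libraries 4, 5 and 6 (1401, 1359 and 1268 RPKM) lay below every floxed P4 sum, and only library 8 (1941) lay among them. Fgf7 placed these libraries in the same way. Of the stromal markers, in cKO uteri 0 were higher and 2 lower after P4 (Pdgfra and Hoxa11), and 0 were higher and 4 lower after vehicle (Thy1, Pdgfra, Hoxa11 and Hoxa10). Of all tested genes 12.3% were higher and 7.06% lower after P4, and 13.1% were higher and 11.5% lower after vehicle. All 7 leukocyte markers were higher in cKO uteri in both treatments, with a summed level between 92.4 and 226 RPKM in cKO P4 against 64.3 to 102 in floxed P4 libraries, and between 118 and 186 in cKO vehicle against 62.7 to 91.3 in floxed vehicle libraries. None of 8 smooth muscle markers passed between genotypes by limma. Whether these shifts bear on Fgf7, Fgf9, Fgf10 or Fgfr1 was not tested.

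Most other ligand genes of the family were too low to be tested. Of 16 others listed, 4 were tested, and 2 of these, Fgf21 and Fgf3, were higher in cKO uteri in both treatments. Of all tested genes 12.3% were higher after P4 and 13.1% after vehicle. Fgf21, a circulating metabolic hormone, averaged 2.46 ± 0.842 RPKM in cKO P4 against -0.0247 ± 0.0799 in floxed P4 libraries, and 2.97 ± 0.607 in cKO vehicle against 0.0232 ± 0.099 in floxed vehicle libraries. The log2 fold changes on the scale with 0.5 RPKM added were 2.46 ± 0.18 after P4 and 2.63 ± 0.12 after vehicle (adjusted p = 1.72e-09 and 3.35e-12). Fgf3 averaged 2.27 ± 0.158 RPKM in cKO P4 against 0.203 ± 0.0109 in floxed P4 libraries, and 1.69 ± 0.448 in cKO vehicle against 0.0104 ± 0.211 in floxed vehicle libraries (1.98 ± 0.18 and 1.85 ± 0.13, adjusted p = 4.85e-08 and 3.42e-10). Both entered the test through the cKO groups alone, and no cKO value of either gene fell in its floxed range. Neither changed with P4 past the threshold.

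Heparan sulphate carriers and editors, which hold FGFs at the cell surface, changed in both directions. Of 16 tested genes of the list of other receptors, coreceptors and carriers, 3 were higher and 2 lower in cKO uteri after P4, and 4 were higher and 4 lower after vehicle, beside the same shares of all genes as above. Sulf1 and Sulf2 encode sulphatases that trim heparan sulphate outside the cell, and they moved apart after vehicle. Sulf1 averaged 15.3 ± 2.25 RPKM in cKO and 23.9 ± 2.13 in floxed vehicle libraries (log2 fold change -0.63 ± 0.10, adjusted p = 5.6e-05), and Sulf2 averaged 39.7 ± 6.07 RPKM in cKO and 18.4 ± 4.11 in floxed vehicle libraries (1.11 ± 0.12, adjusted p = 4.36e-07). After P4, Sulf1 was lower, at 21.1 ± 3.74 RPKM in cKO and 38.6 ± 7.63 in floxed libraries (-0.84 ± 0.14, adjusted p = 0.0002), while Sulf2 did not pass (0.38 ± 0.17, 0.137).

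Syndecan genes encode carriers of heparan sulphate chains. Sdc1 was higher in cKO uteri after P4, at 76.9 ± 10.9 RPKM in cKO against 38.7 ± 1.18 in floxed libraries (0.97 ± 0.15, adjusted p = 7.24e-05), and after vehicle, at 48.6 ± 3.99 against 31.9 ± 6.69 RPKM in cKO and floxed libraries (0.63 ± 0.11, adjusted p = 0.000118). Sdc4 was higher in cKO uteri after P4 (0.44 ± 0.12, adjusted p = 0.0135) and lower after vehicle (-0.31 ± 0.09, 0.0093), and its difference in response passed, at 0.75 ± 0.15 (0.00573). Without the 5 libraries with oviduct or squamous markers that difference was 0.70 (0.0516), and without floxed P4 library 2 the genotype value after P4 was 0.36 (0.0607).

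Relay genes between the receptors and ERK pass the signal on inside the cell, and 19 of 19 were tested. In cKO uteri 2 were higher (Gab1 and Nras) and 2 lower (Ptpn11 and Frs2) after P4, against 12.3% and 7.06% of all tested genes, and 0 higher and 1 lower (Braf) after vehicle, against 13.1% and 11.5%. Frs2, the docking protein of FGF receptors, averaged 17.3 ± 2.94 RPKM in cKO P4 and 21.4 ± 1.43 RPKM in floxed P4 libraries (-0.31 ± 0.10, adjusted p = 0.0391). Each of these 5 calls was lost on leaving out 1 of several single libraries, for Frs2 without cKO P4 library 6 or 8 or floxed P4 library 1, 2 or 9 (-0.33 to -0.19, adjusted p between 0.0599 and 0.147). P4 raised Frs2 in floxed uteri (0.41 ± 0.10, adjusted p = 0.00396) and lowered the adaptor gene Gab1 there (-0.66 ± 0.10, 4.25e-05).

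Feedback and target genes of FGF and ERK signalling gave 15 tested genes of 16. In cKO uteri 4 were higher and 2 lower after P4, and 6 higher and 2 lower after vehicle, with medians of 0.16 and 0.21. The shares of all tested genes were 12.3% higher and 7.06% lower after P4, and 13.1% and 11.5% after vehicle. The paired ETS factors Etv4 and Etv5, both known targets of FGF signalling, moved apart. Etv4 averaged 3.61 ± 0.94 RPKM in cKO P4 against 0.718 ± 0.363 in floxed P4 libraries, and 4.27 ± 0.848 in cKO vehicle against 1.16 ± 0.446 in floxed vehicle libraries (1.78 ± 0.23 and 1.54 ± 0.17, adjusted p = 9.35e-06 and 2.52e-07). Etv5 averaged 8.54 ± 1.05 RPKM in cKO P4 against 12.6 ± 0.765 in floxed P4 libraries, and 7.43 ± 0.746 in cKO vehicle against 12.1 ± 1.83 in floxed vehicle libraries (-0.54 ± 0.13 and -0.66 ± 0.09, adjusted p = 0.00359 and 5.81e-06).

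Flrt3, a membrane protein that binds FGF receptors, was lower in cKO uteri after P4 (-0.67 ± 0.16, adjusted p = 0.00459) and after vehicle (-0.77 ± 0.11, 1.83e-05). Dusp6, the ERK phosphatase often used as a readout of FGF signalling, was higher in cKO uteri after vehicle, at 15.6 ± 1.89 against 11.7 ± 0.629 RPKM in cKO and floxed libraries (0.39 ± 0.07, adjusted p = 0.000203), and did not pass after P4 (0.16 ± 0.10, 0.275). Sprouty genes did not pass between genotypes: after P4 the values were 0.36 ± 0.13 for Spry1 (adjusted p = 0.0578), -0.03 ± 0.11 for Spry2 (0.864) and -0.28 ± 0.12 for Spry4 (0.112). P4 lowered 3 of the 15 in cKO and 5 in floxed uteri, against 4.66% and 15.1% of all tested genes, and raised 0 in either. Spred1, a brake on ERK signalling, was among those lowered in both (-0.42 ± 0.07 in cKO and -0.38 ± 0.07 in floxed uteri, adjusted p = 0.000295 and 0.000182).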

How the data were processed

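RNA extraction used Trizol, per the labels' protocols, followed by a Zymo column with DNase and TruSeq library preparation. Per the submitters' processing notes, reads were handled with cutadapt 2.7, TopHat and Partek on mm10. How reads were counted, with which annotation and strand setting, and how batches were corrected is not given in the sources used.

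The authors deposited gene-level RPKM after a batch correction, as the table's name states, so the values are neither counts nor plain RPKM: 6.66% of the table lies below 0, though 0 of the 240 values of the 10 genes do. For all 13688 genes with a mean above 1, the vehicle libraries of either batch had the same mean (relative tolerance 0.0001). A constant per gene and batch of this kind keeps differences within a batch and changes ratios, most in low genes.

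Values were tested as log2(RPKM + 0.5), with values below 0 set to 0, in genes that reached 1 RPKM in 4 or more libraries. One limma model (version 3.58.1 under R 4.3.3, robust eBayes with a trend) held 4 groups and a batch term and left 19 residual degrees of freedom, to which the prior added 3.34 at the median. All tests are two-sided. Adjustment was by Benjamini-Hochberg over the 14284 tested genes, and a call is an adjusted p under 0.05. Fold changes are on this scale, which understates those of low genes. Every unmarked p in parentheses after a log2 value is such an adjusted p. Hand2 was also tested with exact permutations within batch. Depth was read from at least 145 genes a library. Coordinates are those of GENCODE M21 (GRCm38), and promoter sequences those of RefSeq (GRCm38.p6). For some genes, among them Fgf10 and Fgfr2, the RefSeq start lies inside the gene bounds given, so the window is not at their outer end.

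The 10 genes, the pathway and marker lists and the alternatives were chosen with earlier results of these data known. The text names the 10 genes, the targeted gene Ctcf and 4 genes of the route to Hand2, up to 4 called genes per list and comparison with the smallest adjusted p, and the 5 genes nearest to Hand2 in profile with a mean of at least 5 RPKM. The Sprouty genes, Hand2os1, Ovgp1 and Krt5 were named outside that rule, after their values were seen. Alternatives were a pseudocount of 0.1 or 1, no filter or one at 5 RPKM, quantile normalization, no batch term, each batch alone, untransformed RPKM, weights per library, a replicate block, and leaving out single libraries or 5 with markers of other tissue.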

Additional observations from a re-analysis of the deposited data

Results flagged for a closer look

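In 7 of 40 combinations of gene and group, 1 library stood apart from the rest by Dixon's criterion, which chance meets in about 1 in 20 groups of like values. Fgf1 was 25.5 RPKM in floxed P4 library 7, which also held the most Ovgp1. Fgfr3 was 5.3 RPKM in cKO P4 library 4 and 8.06 RPKM in floxed P4 library 1, each above its group, and 1.38 RPKM in floxed vehicle library 10, below its group. Fgf2 was 2.86 RPKM in cKO vehicle library 13, below its group, and 8.57 RPKM in floxed vehicle library 12, above its group. Fgfr1 was 33 RPKM in cKO vehicle library 5, above its group. In the order named, the summed adipose markers of these libraries were 255, 98.2, 803, 1098, 185, 2.33 and 1154 RPKM. Their part in these values was not tested.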

How the results depend on the processing

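Over 1740 values of the 10 genes under the alternatives, no call changed sign, 69 lost a call and 26 gained one. The number of the 10 genes called was 4 for cKO against floxed after vehicle, 5 for the same after P4, 2 for P4 against vehicle in cKO, 4 for that in floxed uteri and 0 for the difference in response. With at least 5 RPKM required, the counts were 2, 2, 0 and 0 for the first 4 comparisons, since low genes leave the test. Quantile normalization gave 3 for genotype after P4. The mixed batch alone gave 0 after vehicle, 1 for the response in cKO uteri and 1 for the difference in response, and the vehicle-only batch alone gave 0 after vehicle, with fewer libraries in each. Untransformed RPKM gave 2 for genotype after P4 and 1 for the response in cKO uteri. Weights per library gave 6 for the response in cKO, 7 for that in floxed uteri and 5 for the difference. Without the 5 libraries with oviduct or squamous markers the counts were 2 for genotype after P4 and 0 for the response in cKO uteri. Leaving out single libraries gave between 1 and 5 for genotype after P4, between 0 and 2 for the response in cKO uteri, between 0 and 1 for the difference and between 4 and 5 for the response in floxed uteri, and 4 throughout after vehicle. Except where named, the cause was not tested.

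Over all genes, the higher and lower counts were 1878 and 1638 for genotype after vehicle, 1758 and 1009 for genotype after P4, 572 and 666 for the response in cKO, 1120 and 2160 for that in floxed uteri, and 208 and 147 for the difference. Weights per library gave 3324 and 3176, 3813 and 3310, 2184 and 3781, 2217 and 4059, and 2381 and 1741 in the same order. Without the 5 libraries the responses gave 188 and 195 in cKO and 602 and 1420 in floxed uteri, and the difference 102 and 74. At least 5 RPKM gave 1169 and 1124 for genotype after vehicle and 137 and 99 for the difference, the vehicle-only batch 659 and 426 after vehicle, and a fit with no batch term 818 and 1091 for the response in cKO uteri. The difference gave 102 and 102 without cKO P4 library 5, 140 and 96 without floxed P4 library 9, and 453 and 262 without floxed vehicle library 12.

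Of 13 pairs of libraries with the same replicate number in the labels, 6 deviated together with a correlation over 0.1. The median correlation was 0.0968 in these pairs, which ran between -0.342 and 0.544, and -0.000897 in 227 other pairs. The share of other pairs over 0.1 was not taken, so whether the numbers pair the libraries is not settled. With a replicate block the count was 0 for genotype after vehicle, 1 for genotype after P4 and 0 for the response in cKO uteri, and over all genes it called 478 higher and 344 lower for genotype after P4, 66 and 96 for the response in cKO uteri, and 9 and 17 for the difference. Among the values it moved most, for cKO over floxed after P4 Fgf18 was 0.04 (adjusted p = 0.95) and Fgf9 0.40 (0.484), and for the difference in response Fgf18 was 0.15 (0.885).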
